A study of Rattus norvegicus with 3 samples.

Results

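Iron and heme handling was followed through 10 genes, taken from the table by symbol and chosen with earlier results of these data known, that carry out uptake, storage, export and sensing of iron and the breakdown of heme. All 10 have an entry among the 12758 gene symbols of the deposited table, and 0 are absent. The RNA came from female Sprague Dawley rats aged 3 months. The control rats (No-SCI) had only a laminectomy at T9, and the injured rats (SCI) also had the exposed cord contused by an impactor. Both groups thus share the anesthesia and the laminectomy, and no rat without surgery was included. At 24 h, about 2 mm of cord just rostral to the lesion was digested with a cold active protease, the cells were pelleted, and the RNA of the supernatant was sequenced. By the labels there are 2 libraries of No-SCI and 1 of SCI, while the methods give 2 animals per condition. Of the defining glial markers, MBP of oligodendrocytes and GFAP, AQP4 and S100B of astrocytes have no entry, although other genes of both cell types are abundant.

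Iron is carried in extracellular fluid by transferrin, which binds the transferrin receptor and is taken into endosomes, where the metal is reduced and moved into the cytosol. There it is used, stored inside ferritin shells, or exported through ferroportin once a ferroxidase has oxidized it. Heme, which is set free in quantity when blood enters tissue, is opened by heme oxygenase into biliverdin, carbon monoxide and iron, and biliverdin reductase turns biliverdin into bilirubin. In the central nervous system oligodendrocytes are rich in iron and are a main site of transferrin mRNA.

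Each gene has 1 group value for No-SCI and 1 for SCI in the authors' table, in FPKM, a read density scaled to the length of the transcript and the size of the library, so levels can be compared between genes per length. No value is given per library and no counts are given, so the number of reads behind each value and the spread between animals are unknown, and none of the differences below was tested against replicate error. Values with more than 6 digits, found in 5 of the 10 genes (TFRC, HMOX1, SLC40A1, SLC11A2 and CP), may be sums over several entries, which limits ratios of level between genes. Such values were found for 7474 of the 12758 symbols, so this limit is not particular to these 5 genes. A difference is described by its log2 ratio, SCI over No-SCI, and a fold of at least 2 in either direction is used as the mark of a large one. By that mark 2 of the 10 genes, TF and TFRC, were lower after SCI, where 12.1% of all genes were. None of the 10 was at least 2-fold higher, where 7.93% of all genes were. The median log2 ratio of the 10 genes was −0.05, with 4 higher and 6 lower. That of all 12758 genes was −0.12, with 5568 higher and 7190 lower. At a fold of at least 1.3, 2 of the 10 were higher (24.6% of all genes) and 3 lower (35.7%), and at a fold of at least 3, 0 were higher (3.17%) and 1 was lower (3.27%). The 2 genes past the mark of 2-fold both belong to iron uptake, and the log2 ratios of the other 8 lay between −0.71 and 0.59.

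**Figure D1:**
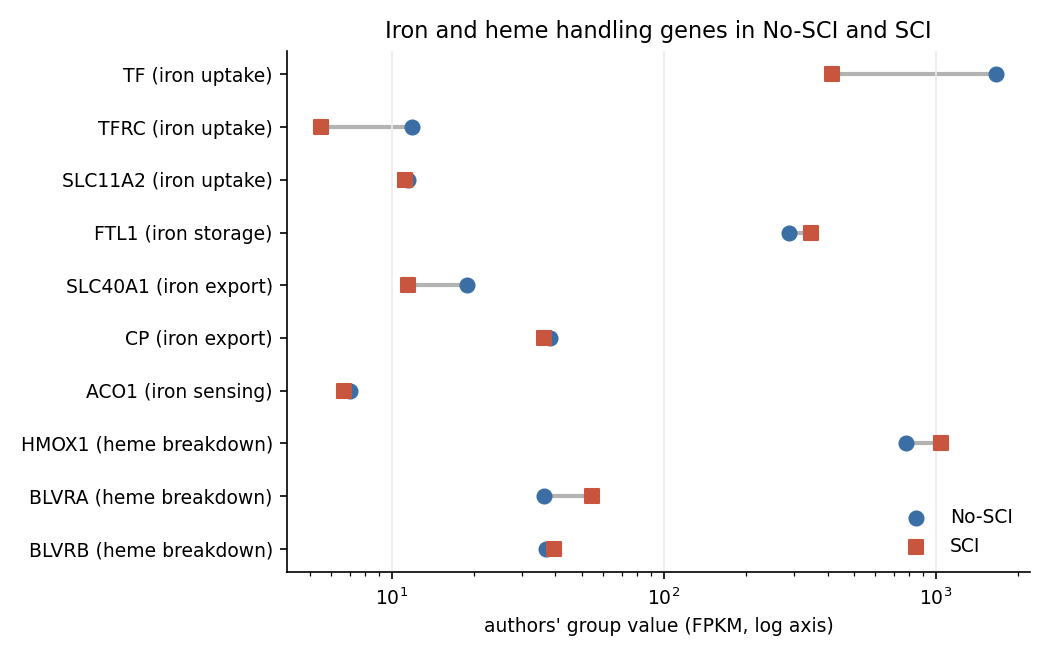
Authors' group values of the 10 genes in FPKM on a log axis, with circles for No-SCI, squares for SCI and a line joining the 2 values of a gene. TF and TFRC are the genes with the widest gaps, and SLC11A2, CP, ACO1 and BLVRB have values that nearly coincide.

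TF, the gene of the carrier protein transferrin, was the most abundant of the 10 in No-SCI and differed most. Its value was 1665 FPKM in No-SCI and 417 FPKM in SCI, a log2 ratio of −2.00 or 3.99-fold lower. It went from rank 89 of all genes to rank 494, and its ratio lay at percentile 1.24 of all ratios. Among the 1276 genes in the same decile of mean level, 7.76% were at least 2-fold lower.

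TFRC, the receptor that brings transferrin into cells, was far less abundant. The value of TFRC was 11.8 FPKM in No-SCI and 5.50 FPKM in SCI, a log2 ratio of −1.11 or 2.15-fold lower. That ratio lay at percentile 9.80 of all ratios, and 14.2% of the 1275 genes in its decile of mean level were at least 2-fold lower. The TFRC difference sat close to the mark, since a pseudocount of 1 moved it to −0.98 and centering the median of all genes at 0 moved it to −0.99. In both groups ligand mRNA outnumbered receptor mRNA, by 141 times in No-SCI and 75.8 times in SCI.

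SLC11A2 encodes the divalent metal transporter that moves ferrous iron across the endosomal membrane. It was listed at 11.4 FPKM in No-SCI and 11.2 FPKM in SCI, a log2 ratio of −0.03. The direction of this small difference turned to 0.08 with the median of all genes centered at 0. Uptake genes thus did not share 1 size of difference, with the carrier and its receptor lower and the endosomal transporter at nearly equal values.

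The promoters of TF and TFRC are shown because these are the 2 genes past the mark. The hypoxia core was searched because the genes of 2 hypoxia-inducible factors were also lower, as given with the other sensing genes. A part of these factors in the TF or TFRC values was not tested. Both sequences are the 100 bases before the transcription start in RefSeq on the GRCr8 assembly, 5′ to 3′ in the direction of transcription. TF lies at chr8:112695377-112695476 and TFRC at chr11:81690319-81690418, both on the minus strand. Capitals mark TATAAA, searched in these 100 bases, and the core of the hypoxia response element, ACGTG or GCGTG, searched in the 250 bases before the start. Each was searched on both strands, CACGC and CACGT are the cores on the opposite strand, ACGTG and CACGT overlap where a window reads CACGTG, and no matches overlap in the sequences shown. These motifs were chosen after the values were seen.
TF: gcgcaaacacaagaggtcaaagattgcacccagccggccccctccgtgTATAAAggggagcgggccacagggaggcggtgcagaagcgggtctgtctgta
TFRC: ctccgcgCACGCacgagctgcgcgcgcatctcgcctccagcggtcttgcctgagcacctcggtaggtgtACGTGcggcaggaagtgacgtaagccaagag

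The TFRC window holds ACGTG starting 31 bases before the start and CACGC starting 93 bases before it. The TF window holds TATAAA starting 52 bases before the start and no hypoxia core in its 250 bases. Of 33469 promoter windows of the rat, 36.7% hold at least 1 hypoxia core on either strand, and 5.78% hold TATAAA in the last 100 bases. Promoter windows were found for 8 of the 10 genes, and FTL1 and HMOX1 have none. Of the 8, 4 (TFRC, BLVRB, ACO1 and SLC11A2) hold a hypoxia core in at least 1 window. SLC11A2 has a further window without a core, so this count by gene is not the same measure as the share of windows. Of those 4, TFRC alone was at least 2-fold lower. The loop of iron-responsive elements, hairpins in mRNA that the iron regulatory proteins bind, was searched as C, any 5 bases, then CAGTGN in the first 50 transcribed bases. It was found in 0 of the 8 genes and, on the sense strand, in 1.57% of all windows. FTL1 was not searched for lack of a window, and neither were iron-responsive elements outside these 50 bases. The result therefore does not show that the genes lack such elements. Such matches describe letters and not binding.

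FTL1, the light chain of ferritin, was listed at 288 FPKM in No-SCI and 347 FPKM in SCI. The log2 ratio of 0.27, or 1.21-fold higher, lay at percentile 70.4 of all ratios. FTL1 has many copies in the rat genome, with 14 pseudogenes and 7 further genes named after it in RefSeq. One of these, FTL1L1, is in the table at 241 FPKM in No-SCI and 267 FPKM in SCI, a log2 ratio of 0.15. How reads that match several copies were counted is not given in the sources used here, so the FTL1 level is uncertain. The heavy chain gene FTH1 has no entry, and the ratio of the 2 chains could not be given.

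Other storage genes were all listed at lower values in SCI, and none of them by 2-fold. By any amount, 7190 of all 12758 genes were lower, and the median log2 ratio of all genes was −0.12. A list of 7 ferritin and iron chaperone genes has 4 in the table, with a median log2 ratio of −0.36. NCOA4, the receptor that delivers ferritin to autophagy, was at 108 FPKM in No-SCI and 64.0 FPKM in SCI, a log2 ratio of −0.75. PCBP2, a poly(C)-binding protein that also serves as an iron chaperone, and its relatives PCBP3 and PCBP4 were at 203, 330 and 206 FPKM in No-SCI. Their log2 ratios were −0.17 for PCBP2, −0.19 for PCBP3 and −0.53 for PCBP4.

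SLC40A1, the gene of ferroportin, the iron exporter of the cell surface, was at 18.9 FPKM in No-SCI and 11.5 FPKM in SCI. Its log2 ratio of −0.71, or 1.64-fold lower, lay at percentile 20.9 of all ratios and was the third lowest of the 10 genes. CP, the ferroxidase ceruloplasmin that works with ferroportin, was at 38.2 FPKM in No-SCI and 36.3 FPKM in SCI, a log2 ratio of −0.07. The direction of CP turned to 0.04 with the median of all genes centered at 0. CP mRNA was 2.02 times as abundant as SLC40A1 mRNA in No-SCI and 3.15 times in SCI.

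Of 7 other genes of export and hepcidin control, 2 are in the table, and HAMP, the gene of hepcidin itself, and the ferroxidase gene HEPH have no entry. BMP6, a ligand that signals iron load to hepcidin in the liver, was at 1.71 FPKM in No-SCI and 5.15 FPKM in SCI, a log2 ratio of 1.59. HJV, its co-receptor, was at 1.89 and 1.42 FPKM. Both values of HJV and the No-SCI value of BMP6 are under 2 FPKM, near the floor of the table at 1, where a constant in the values would weigh most.

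ACO1, the cytosolic aconitase that becomes iron regulatory protein 1 when it loses its iron-sulfur cluster, was the least abundant of the 10 genes in No-SCI. It was listed at 7.01 FPKM in No-SCI and 6.69 FPKM in SCI, a log2 ratio of −0.07, which turned to 0.05 with the median of all genes centered at 0. Its paralog IREB2, iron regulatory protein 2, had values of 5.29 and 5.13 FPKM, a log2 ratio of −0.04. Both iron regulatory proteins thus had low and nearly equal values in the 2 groups.

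The 6 genes of the list for iron and oxygen sensing are all in the table, and 2 were at least 2-fold lower after SCI (12.1% of all genes). EPAS1, hypoxia-inducible factor 2 alpha, was at 501 FPKM in No-SCI and 166 FPKM in SCI, a log2 ratio of −1.60. HIF1A, hypoxia-inducible factor 1 alpha, was at 201 FPKM in No-SCI and 84.2 FPKM in SCI, a log2 ratio of −1.25. FBXL5, the ubiquitin ligase subunit that marks IREB2 for degradation when iron is plentiful, had a log2 ratio of −0.53, and GLRX3, a cytosolic glutaredoxin, one of 0.24.

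HMOX1, the inducible heme oxygenase, was the second most abundant of the 10 genes in No-SCI and the most abundant in SCI. It was at 777 FPKM in No-SCI, rank 219 of all genes, and at 1046 FPKM in SCI, rank 167. The log2 ratio of 0.43, or 1.35-fold higher, lay at percentile 77.5 of all ratios. HMOX1 was thus already among the most abundant genes of the laminectomy controls. The constitutive paralog HMOX2 was at 116 FPKM in No-SCI and 120 FPKM in SCI, a log2 ratio of 0.05. HMOX1 was 6.71 times as abundant as HMOX2 in No-SCI and 8.75 times in SCI.

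BLVRA and BLVRB encode the biliverdin reductases, BLVRA for the alpha form of biliverdin made by heme oxygenase and BLVRB for the beta form, which is also a flavin reductase. BLVRA was at 36.2 FPKM in No-SCI and 54.4 FPKM in SCI, a log2 ratio of 0.59, the highest of the 10 genes, at percentile 83.2 of all ratios. BLVRB was at 36.8 FPKM in No-SCI and 39.6 FPKM in SCI, a log2 ratio of 0.11. The pair had nearly the same level in No-SCI, and BLVRA was 1.38 times as abundant as BLVRB in SCI. All members of the heme breakdown branch were listed higher in SCI, and by less than 2-fold each. By any amount, 5568 of all 12758 genes were higher.

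**Figure D2:**
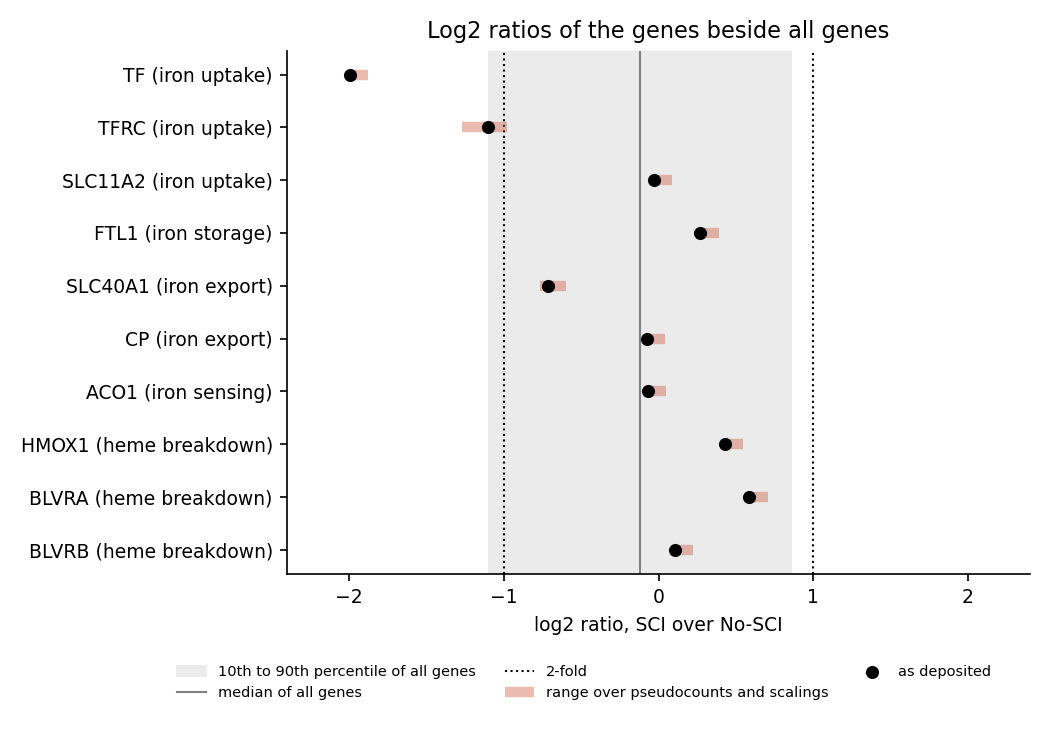
Log2 ratio (SCI over No-SCI) for the 10 genes (points), with bars for the range over 3 changes of a constant, 3 scalings and the summing of repeated symbols, beside the 10th to 90th percentile of all genes (shaded, −1.10 to 0.86). TF lies outside the shaded range under every setting, TFRC lies at its edge, and the bars of SLC11A2, CP and ACO1 reach across 0.

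The other genes of heme uptake and breakdown gave 13 of 17 in the table, with a median log2 ratio of −0.17. Of these, 3 were at least 2-fold higher (7.93% of all genes) and 0 at least 2-fold lower (12.1%). PGRMC2, a membrane heme chaperone, was at 15.2 FPKM in No-SCI and 35.8 FPKM in SCI (log2 ratio 1.24). HEBP1, a heme-binding protein, was at 79.6 FPKM in No-SCI and 168 FPKM in SCI (log2 ratio 1.08). CD163, the macrophage receptor for hemoglobin bound to haptoglobin, was at 3.19 FPKM in No-SCI and 6.67 FPKM in SCI (log2 ratio 1.07). Other heme or hemoglobin binding proteins of the list stayed within 2-fold. Their log2 ratios were 0.02 for HEBP2, −0.21 for PGRMC1 and −0.51 for HP, the last at 1.49 and 1.05 FPKM. SLC48A1, a heme transporter of endosomes and lysosomes, was the most abundant of the list, with 585 FPKM in No-SCI and 348 FPKM in SCI, a log2 ratio of −0.75. NFE2L2, the transcription factor NRF2 that activates HMOX1, had a log2 ratio of −0.17, and BACH1, the repressor of HMOX1 that heme binds, one of −0.62.

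Heme synthesis stayed within 2-fold throughout, with 12 of 13 genes in the table and a median log2 ratio of −0.25. Its log2 ratios ran from −0.80 for FECH, the ferrochelatase that inserts iron into heme, to 0.54 for PPOX, the oxidase of the step before it. ALAS1, the first enzyme of the pathway in most cells, was at 13.5 and 12.6 FPKM, while ALAS2, its erythroid form, has no entry. SLC25A38, a mitochondrial carrier needed for heme synthesis in red cell precursors, and TMEM14C, which moves porphyrin precursors into mitochondria, were the most abundant, at 280 and 169 FPKM in No-SCI. Their log2 ratios were −0.69 for SLC25A38 and 0.0027 for TMEM14C.

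Mitochondrial iron import and iron-sulfur cluster assembly was the largest of the lists, with 24 of 25 genes in the table and a median log2 ratio of 0.22. In this list 15 genes were higher and 9 lower in SCI, beside 5568 higher and 7190 lower among all 12758 genes. In each direction 1 gene of the list was at least 2-fold different. By that mark 7.93% of all genes were higher and 12.1% lower. GLRX5, a mitochondrial glutaredoxin that passes on newly made clusters, was at 24.9 FPKM in No-SCI and 123 FPKM in SCI, a log2 ratio of 2.31 or 4.96-fold higher. No other gene of the 7 lists differed as much in either direction. HSPA9, the mitochondrial chaperone that helps release clusters from their scaffold, was at 42.1 FPKM in No-SCI and 19.1 FPKM in SCI, a log2 ratio of −1.14. ISCU, that scaffold, and CISD1, a cluster protein of the outer membrane, were the most abundant of the list, at 205 and 282 FPKM in No-SCI, with log2 ratios of 0.23 and 0.35.

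Among 15 other genes of iron uptake, 12 are in the table, with 3 at least 2-fold higher (7.93% of all genes) and 1 at least 2-fold lower (12.1%). STEAP3, the reductase that turns ferric into ferrous iron in the transferrin endosome, was at 9.84 FPKM in No-SCI and 3.40 FPKM in SCI, a log2 ratio of −1.53. SCARA5, a scavenger receptor that binds ferritin, was at 2.39 and 6.71 FPKM (log2 ratio 1.49), HFE, a partner of the transferrin receptor, at 1.90 and 4.28 FPKM (1.17), and STEAP4, another metalloreductase, at 1.08 and 2.41 FPKM (1.16). These 3 genes and STEAP3, all the genes of this list past 2-fold, were under 10 FPKM in both groups. TFR2, the second transferrin receptor, was at 6.27 FPKM in No-SCI and 3.38 FPKM in SCI, a log2 ratio of −0.89. SNX3, a sorting protein that recycles the transferrin receptor, was the most abundant of the list, at 1265 and 1705 FPKM.

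Over the 7 lists, 73 of 90 genes are in the table, and 8 (11.0%) were at least 2-fold higher and 4 (5.48%) at least 2-fold lower. Their median log2 ratio was −0.10. Of all genes, 7.93% were at least 2-fold higher and 12.1% at least 2-fold lower. Of the 8 higher genes, 5 were under 10 FPKM in No-SCI.

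**Figure D3:**
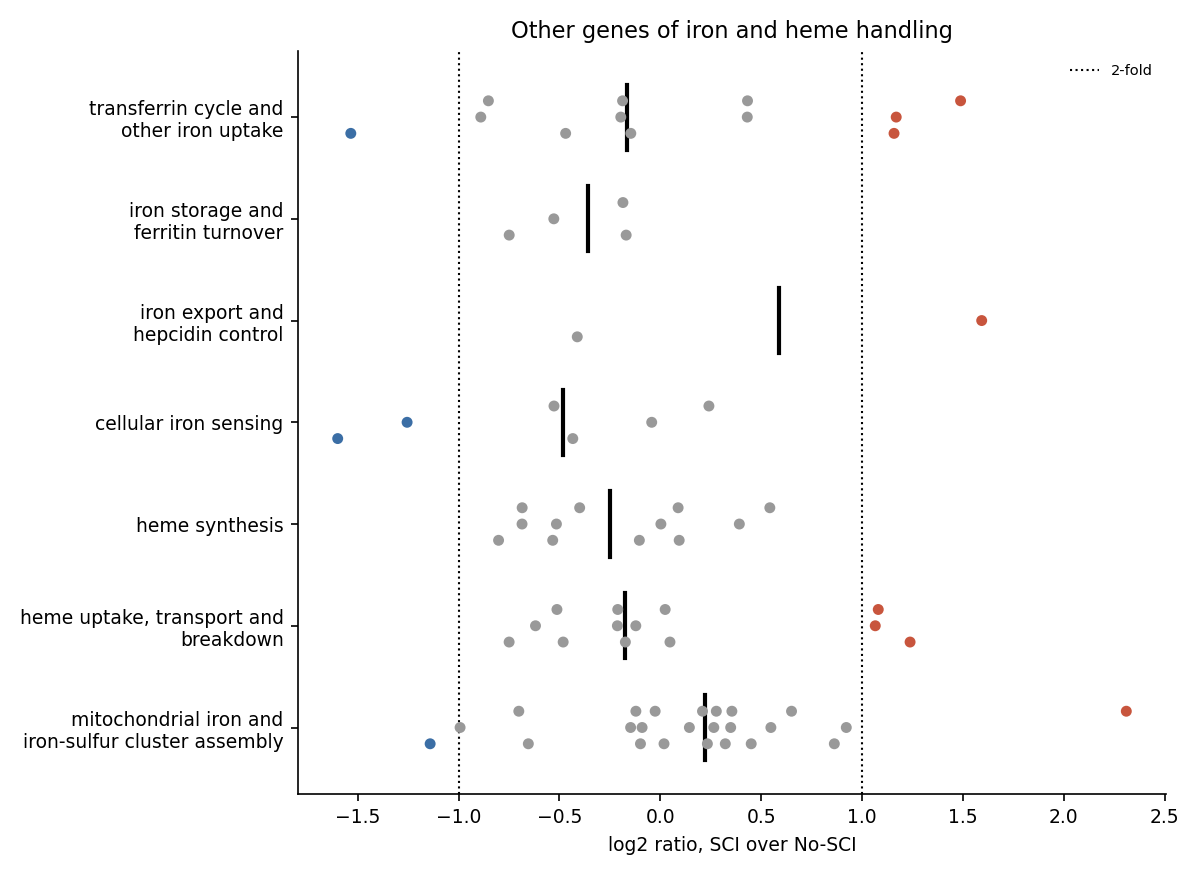
Log2 ratio (SCI over No-SCI) for each of the 73 other genes of iron and heme handling in the table, by list, in red where at least 2-fold higher, blue where at least 2-fold lower and grey between, with a bar at the median of each list. GLRX5 stands farthest to the right at 2.31 and EPAS1 farthest to the left at −1.60.

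TF and most markers of oligodendrocytes were lower in SCI, as were most genes of the astrocyte and neuronal lists. Of 18 oligodendrocyte genes 17 are in the table, 16 of them lower in SCI and 11 at least 2-fold lower, where 12.1% of all genes were. The median log2 ratio of the 17 was −1.62. The summed level of this list was 89100 FPKM in No-SCI and 48759 FPKM in SCI, most of it from MOBP and BCAS1. The log2 ratio of TF, −2.00, was exceeded in size by 3 of the 17, OPALIN, UGT8 and TSPAN2. The TF level was 0.882 times that of CNP in No-SCI and 0.678 times in SCI. Relative to the summed list, TF had a ratio of 0.0187 in No-SCI against 0.00856 in SCI. Without MOBP and BCAS1 in the sum, the ratios were 0.189 and 0.149. The part of oligodendrocyte RNA in the TF difference was not tested, and fewer cells of a type and less RNA per cell cannot be told apart in such bulk RNA.

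Astrocytes are a main source of CP in the central nervous system, and their markers were lower in SCI while CP was 1.05-fold lower. Of 14 astrocyte genes 9 are in the table, 8 of them lower and 5 at least 2-fold lower (12.1% of all genes), with a median log2 ratio of −1.01. The summed astrocyte list was 15186 FPKM in No-SCI and 9595 FPKM in SCI, with NDRG2, GLUL and CLU as its most abundant genes and no entry for GFAP, AQP4, SLC1A3, S100B or ALDOC.

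For TFRC, which brain endothelium carries in quantity, the endothelial list gave a median log2 ratio of −0.02, with 10 of 14 genes in the table. In this list 2 genes were at least 2-fold higher (7.93% of all genes) and 1 at least 2-fold lower (12.1%). The log2 ratios were 1.61 for CDH5 and 1.11 for EGFL7, and −1.37 for SLCO1A4. Its sum was 70.2 FPKM in No-SCI and 89.4 FPKM in SCI. The levels were low, with medians of 5.53 FPKM in No-SCI and 7.50 FPKM in SCI. PECAM1, TEK, TIE1 and LY6C1 have no entry, and EGFL7, CLDN5 and ESAM are the most abundant by mean. The part of endothelial RNA in the TFRC difference was not tested.

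HMOX1, CD163 and SLC40A1 are known from macrophages that clear red cells, and the microglia and macrophage list was split. Of its 18 genes 17 are in the table, with CTSS without an entry, and their median log2 ratio was 0.30. In this list 4 were at least 2-fold higher (7.93% of all genes) and 3 at least 2-fold lower (12.1%). Its sum was 1458 FPKM in No-SCI and 2046 FPKM in SCI, with AIF1, LYZ2 and FCER1G as its most abundant genes. Globin mRNA of red cells differed little between the groups. The 5 globin entries of the erythroid list, HBA-A1, HBA-A2, HBB, HBB-B1 and HBB-BS, had log2 ratios from −0.15 to 0.07 and summed to 3070 FPKM in No-SCI and 3065 FPKM in SCI. The whole erythroid list has 8 of 14 symbols in the table, 0 of them 2-fold different, with a median log2 ratio of −0.08 and sums of 4624 FPKM in No-SCI and 3854 FPKM in SCI. BPGM, at 1488 and 748 FPKM, is also among the most abundant of the list, and the red cell genes ALAS2, SLC4A1 and EPB42 have no entry. Globin genes are near-identical copies, so the split of reads among them is uncertain.

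Markers of meningeal fibroblasts were the list with the largest difference in the other direction. Of 14 genes 13 are in the table, all 13 of them higher in SCI and 12 at least 2-fold higher, where 7.93% of all genes were. The median log2 ratio of the 13 was 2.56. That list summed to 89.4 FPKM in No-SCI and 983 FPKM in SCI, with CRABP2, DCN and OSR1 as its most abundant genes and SLC22A6 without an entry. SCARA5, HFE, STEAP4 and BMP6 were higher in the same group, and the part of fibroblast RNA in their values was not tested. Neuronal genes had a median log2 ratio of −0.48, with 12 of 14 in the table and 4 at least 2-fold lower (12.1% of all genes). Their sum was 1789 FPKM in No-SCI and 1662 FPKM in SCI, led by GAP43, THY1 and NEFL. SNAP25 and NEFM have no entry.

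**Figure D4:**
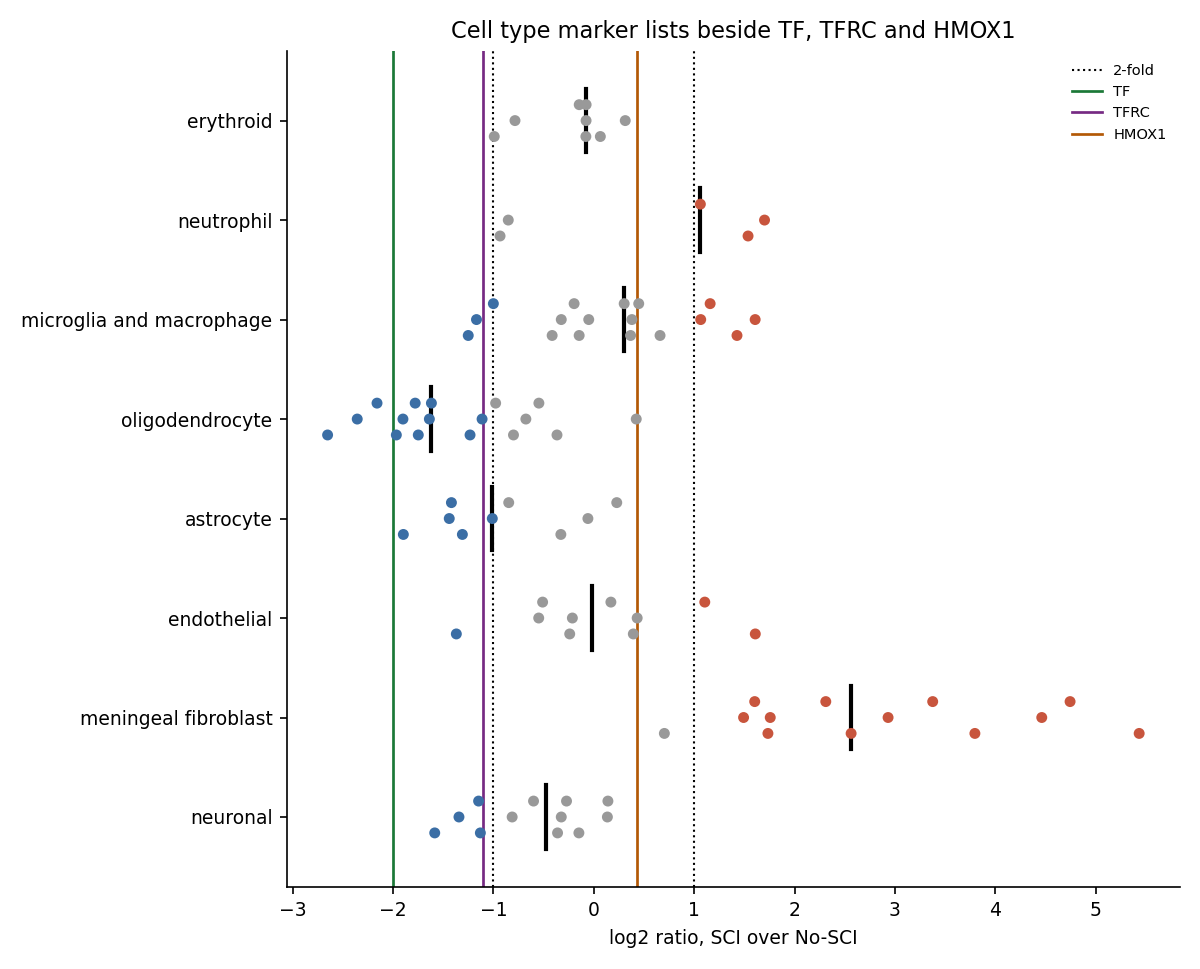
Log2 ratio (SCI over No-SCI) for the genes of 8 cell type marker lists, colored as at least 2-fold higher (red), at least 2-fold lower (blue) or between (grey), with a bar at each median and vertical lines at the log2 ratios of TF, TFRC and HMOX1. The line of TF at −2.00 crosses the oligodendrocyte genes, whose median is −1.62, and lies left of every gene in the other 7 lists.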

How the data were processed

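Members and gene lists were chosen with earlier results of these data known. According to the methods of the study, reads of strand-specific, ribosome-depleted total RNA libraries were downsampled to the smallest library, aligned to rn6 with STAR 2.5.4b, and summarized by Cuffdiff of cufflinks 1.3.0 with upper quartile normalization. In the table deposited by the authors, FPKM is given as 1 estimate per group. The table also holds the authors' own p-values, q-values, significance calls and fold changes, which were not used. The methods state the reads sequenced per sample, but not those left after downsampling or behind each value, and no interval or test could be computed.

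Columns were assigned to the group they name, leaving 0 of them unassigned. For the 13 symbols listed 2 times among 12771 entries, the entry with the larger mean was taken. The log2 ratio used no pseudocount and no filter on low values. Values start at 1, with 18 No-SCI and 37 SCI values exactly at 1. Named genes are the 10 members, their paralogs, list genes past 2-fold, and the most abundant of each list. FTL1L1, NCOA4, FBXL5, BACH1, FECH, PPOX, ALAS1, TFR2, PCBP4, HEBP2, PGRMC1, HP, OPALIN, UGT8, TSPAN2, CNP and further genes of the erythroid and neutrophil lists were named after their values were seen. Some genes of the lists are counted but not reported here by name. Promoters came from RefSeq (GRCr8), an assembly other than rn6, and 10 symbols matched it. Ratios and counts were tested on simulated data. Python 3.11.15 with numpy 2.4.6, pandas 2.3.3 and matplotlib 3.10.9 was used.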

Additional observations from a re-analysis of the deposited data

How the results depend on the processing

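Each log2 ratio was recomputed with a pseudocount of 1 or 0.1, with 1 subtracted from every value, with the median of all genes centered at 0, with the same total or upper quartile in both groups, and with repeated symbols summed. Of the 10 genes, 7 kept their direction throughout, and TF stayed between −2.00 and −1.88. With the median centered, ACO1 turned to 0.048, CP to 0.0423, SLC11A2 to 0.0842 and the median of the 10 genes to 0.0661, and with equal upper quartiles these were 0.0347, 0.029, 0.0709 and 0.0528. With equal totals SLC11A2 was 0.0122. TFRC came under 2-fold with a pseudocount of 1 (−0.98) and with the median centered (−0.99), which left 1 gene lower. That count was also 1 at a fold of at least 3 and with a mean of at least 10 FPKM, and at a fold of at least 1.3 there were 2 genes higher. Among the other genes of the pathway, those higher numbered 17 at 1.3-fold, 2 at 3-fold, 3 with a mean of at least 10 FPKM and 5 with a pseudocount of 1, and those lower numbered 25 at 1.3-fold, 1 at 3-fold and 8 with 1 subtracted. The shares of all genes moved too, to 24.6% higher and 35.7% lower at 1.3-fold, 3.17% and 3.27% at 3-fold, 6.92% higher with a mean of at least 10 FPKM, 6.38% higher with a pseudocount of 1 and 16.2% lower with 1 subtracted. Centering moved the shares of all genes past 2-fold to 9.59% lower and 9.53% higher. The cause was not tested. Leaving out FTL1, chosen after its copies were seen, kept the median direction. No library could be left out, because no value is given per library. No paired analysis was possible because the table holds 1 value per group.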

Other observations

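Neutrophil genes, which include 1 carrier of iron, differed in both directions, with 3 higher and 2 lower in SCI. The 3 higher genes were at least 2-fold higher (7.93% of all genes), and 0 were at least 2-fold lower (12.1%). The median log2 ratio of the 5 genes in the table was 1.06, that of CXCR2. Of 10 genes on a neutrophil list 5 are in the table, while MMP8, MMP9, NGP, CAMP and FPR1 have no entry, and the list summed to 104 FPKM in No-SCI and 174 FPKM in SCI. S100A8 and S100A9, which together form the metal-binding protein calprotectin, were at 32.4 and 14.3 FPKM in No-SCI and at 94.1 and 46.6 FPKM in SCI, with log2 ratios of 1.54 and 1.70. LCN2, which binds iron held by siderophores and also belongs to the iron uptake list, was at 39.4 FPKM in No-SCI and 21.8 FPKM in SCI, a log2 ratio of −0.85. CXCR2, at 1.02 and 2.13 FPKM, was at least 2-fold higher near the lowest value of the table, and CSF3R had a log2 ratio of −0.93. None of these differences was tested, since no value is given per library.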
